A study of Mus musculus with 5 samples.

Results

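The 10 genes described here make and degrade cyclic nucleotides. They were chosen by name, with earlier results of these data known, from the 22532 genes counted in nuclei of tissue dissected as mouse central amygdala (CeA). They are 7 phosphodiesterases (Pde1b, Pde1c, Pde3a, Pde4b, Pde4d, Pde7b and Pde10a) and 3 adenylyl cyclases (Adcy2, Adcy5 and Adcy8), and all 10 were found in the files. Adenylyl cyclases make cyclic AMP from ATP, driven by receptors coupled to Gs or Golf and held back by those coupled to Gi. Phosphodiesterases hydrolyse cyclic AMP, cyclic GMP or both, and so set how long a signal lasts and how far it spreads within the cell. In the neighbouring striatum Adcy5, Golf, Pde10a and Pde1b belong to the signalling equipment of dopamine-responsive projection neurons.

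The study made 5 libraries of nuclei, 3 of fed mice and 2 of mice without food, and each pooled CeA tissue of a male and a female. Fed replicates 1 and 2 came from wild-type C57BL/6NRj mice of 8 weeks with food available. Fed replicate 3 came from Htr2a-Cre mice of 12 weeks, in which a bacterial artificial chromosome transgene places Cre under the control of the serotonin receptor 2a gene, and which expressed mCherry from a Cre-dependent viral vector in the CeA. Fasted replicates 1 and 2 came from wild-type mice of 8 weeks kept without food for 20 and 21 hours. Fed and fasted libraries of the same number were prepared together per the study's supplement, and fed replicate 3 was taken by elimination as the fed library of the remaining batch, so its genotype, vector, age and preparation cannot be told apart. In the main comparison of fed with fasted libraries each library counts as 1 sample, and p-values measure the spread between these libraries of pooled mice.

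The members lie on 7 chromosomes of the GRCm39 build, from Pde1b, which spans 28421 bases (chr15:103411286-103439706), to Pde4d, which spans 1506016 bases (chr13:108586482-110092497). Of the genes that overlap a member on the map, those also counted were Ppp1r1a over Pde1b and Cfap90 over Adcy2, both on the opposite strand. RefSeq promoter windows of GRCm38.p6, which hold 300 bases with 250 before the start of the transcript, were listed for 8 members and not for Pde3a or Adcy8. The first window on the map of Pde1b, Pde10a and Adcy5 is shown because these genes all had their highest mean in the same neurons. Pde1c did too, but its windows and the further ones of Pde1b and Pde10a are not shown. A window of Pde4b is shown because among the members it alone held TGACG, the core of the cyclic AMP response element. Capitals mark that core, read on either strand.
Pde1b (chr15:103502784-103503083, plus strand): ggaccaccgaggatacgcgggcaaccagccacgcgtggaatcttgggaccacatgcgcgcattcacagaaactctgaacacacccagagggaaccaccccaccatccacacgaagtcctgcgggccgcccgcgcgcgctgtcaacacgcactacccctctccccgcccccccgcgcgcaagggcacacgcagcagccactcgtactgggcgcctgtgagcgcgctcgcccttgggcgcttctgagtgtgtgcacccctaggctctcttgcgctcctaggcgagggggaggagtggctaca
Pde10a (chr17:8801495-8801794, plus strand): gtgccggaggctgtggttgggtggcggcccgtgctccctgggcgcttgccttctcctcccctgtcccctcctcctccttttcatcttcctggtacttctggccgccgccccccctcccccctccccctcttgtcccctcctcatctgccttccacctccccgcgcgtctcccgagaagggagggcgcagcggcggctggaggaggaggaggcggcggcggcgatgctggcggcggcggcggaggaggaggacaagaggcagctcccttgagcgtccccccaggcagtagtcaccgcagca
Adcy5 (chr16:35154614-35154913, plus strand): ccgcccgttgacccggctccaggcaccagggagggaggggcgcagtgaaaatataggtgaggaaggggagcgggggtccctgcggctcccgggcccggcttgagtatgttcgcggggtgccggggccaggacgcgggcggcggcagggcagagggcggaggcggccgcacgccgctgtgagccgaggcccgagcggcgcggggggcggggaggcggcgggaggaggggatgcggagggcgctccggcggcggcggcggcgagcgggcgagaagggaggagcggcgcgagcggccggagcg
Pde4b (chr4:102421305-102421604, plus strand): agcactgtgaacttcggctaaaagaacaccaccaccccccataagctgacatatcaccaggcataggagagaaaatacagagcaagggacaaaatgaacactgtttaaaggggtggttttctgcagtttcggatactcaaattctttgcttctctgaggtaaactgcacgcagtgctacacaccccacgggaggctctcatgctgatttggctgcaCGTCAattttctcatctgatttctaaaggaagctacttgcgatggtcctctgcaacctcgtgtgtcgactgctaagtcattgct
Among 16 windows of members TGACG was found in 1, against 20.8% of all 32851 windows. The palindrome TGACGTCA, which contains TGACG, was in 0 of the 16 and in 1.79% of all windows, and the E-box CACGTG was in 0 of the 16 and in 7.15%.

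Between 1130 and 1734 nuclei were kept from each library, 7161 in all, with a median of 6608 to 16367 unique molecular identifiers (UMIs, each standing for 1 captured transcript). Classes were formed by gates on the raw UMIs of marker genes, none of them a member. Of 4288 inhibitory nuclei, defined by Gad1 and Gad2, the gates on Rarb, Foxp2, Prkcd, Calcrl, Sst, Dnah5 and Nkx2-1 held 654, 147, 198, 149, 175, 247 and 69. The gates on Tac1 and Vdr held 38 and 30, while 1705 nuclei met no gate and 876 met several and were left out. Clusters marked by Rarb were assigned by the study to the amygdalostriatal area and those marked by Foxp2 to intercalated cells. Both lie outside the CeA by its account, as do its Nkx2-1 interneurons of the basolateral amygdala. Whether the gates hold the same cells was not tested. Genes outside the gates were read as a check, as CPM, the UMIs of a gene for every 1000000 UMIs of the class (mean over libraries). Tshz1 was at 439 CPM in the Foxp2 gate, Vipr2 at 244 CPM in the Dnah5 gate and Sox6 at 1191 CPM in the Nkx2-1 gate. In the Rarb gate the dopamine receptor gene Drd2 was at 205 CPM and Drd1 at only 9.38 CPM. Nuclei that met the Rarb gate and another, such as Tac1 or Foxp2, are not part of these values. Some check genes were not highest in the gate they were read for. Drd2, read for the Calcrl gate, was at 68.6 CPM there. Cdh9, read for the Prkcd and Calcrl gates, was at 87.3 CPM in the Prkcd gate, against 177, 196 and 320.0 CPM in the Rarb, Foxp2 and Calcrl gates. Meis2, read for the Rarb gate, was at 1474 CPM there and 2073 CPM in the Foxp2 gate. The check genes Oprm1, Nts, Tac2, Ebf1, Pnoc and Lhx6 and those of the glial gates are not given here. The Sst gate thus stands without a check. Glial gates held 467 astrocytes, 184 oligodendrocytes and 92 oligodendrocyte precursor cells (OPCs). The astrocyte gate also held 2 to 5 of 5 microglial markers, which summed to 25.8 to 2235 CPM with the highest sum in fasted replicate 1, against 12.8 to 28.3 CPM in inhibitory nuclei. Their part in the astrocyte values below was not tested.

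**Figure D1:**
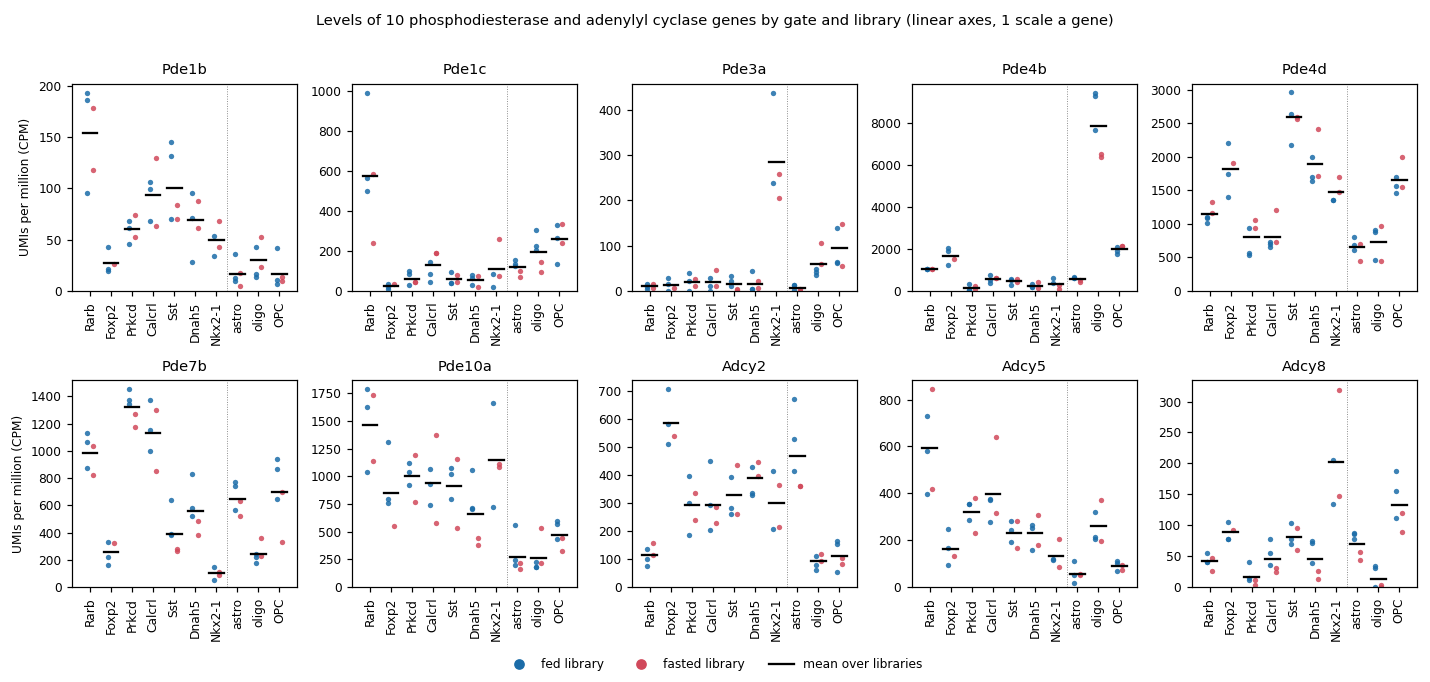
Level of each member in CPM (vertical axes, linear from 0) in 7 inhibitory and 3 glial gates (horizontal axes), with 1 point for each fed or fasted library that had at least 10 nuclei of the gate and a bar at the mean. Pde1c is highest in the Rarb gate, Pde3a in the Nkx2-1 gate and Pde4b in oligodendrocytes, while Pde10a has the smallest range over the 7 inhibitory gates, 2.21-fold.

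Levels below are CPM of the UMIs summed over a gate in 1 library. Each inhibitory gate was compared with the mean of the other 6, and each glial gate with the mean of the 7, within libraries (edgeR quasi-likelihood test, adjusted by Benjamini-Hochberg over 8877 genes). Differences are log2 values ± their standard errors. The units of this fit are the sums of a gate in a library. Its p-values measure the spread left after gate and library effects, with a gene's spread shared by all gates. Sums of the same library were otherwise treated as independent, so these p-values do not measure the spread between libraries alone. The level in called barcodes with under 500 genes, which 3 libraries held, is given as a background level of each gene. Fed replicates 1 and 2 and fasted replicate 1 had 1026, 311 and 156 of these barcodes, not filtered on mitochondrial UMIs. Their level shows what such barcodes hold and does not decide whether a class expresses a gene.

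The phosphodiesterases stimulated by calcium and calmodulin, Pde1b and Pde1c, were both highest in the Rarb gate. Pde1c measured 566, 502 and 990.0 CPM in fed replicates 1, 2 and 3 and 239 and 587 CPM in fasted replicates 1 and 2. Fasted replicate 1 was the lowest and fed replicate 3 the highest, and all 5 lay above every library of the Foxp2, Prkcd, Calcrl, Sst and Dnah5 gates. The Nkx2-1 gate, OPCs and oligodendrocytes overlapped them, with highest libraries of 262, 333 and 306 CPM. The Rarb gate was 9.68-fold above the other inhibitory gates (3.27 ± 0.21, adjusted p = 4.27e-18). In the Foxp2 gate Pde1c was lower, at 24.0 ± 13.1 CPM (SD, n = 4 libraries; -1.97 ± 0.42, adjusted p = 0.000493), under its background of 61.5 to 162 CPM. It was higher in OPCs, at 259.8 ± 81.1 CPM (SD, n = 5; 1.67 ± 0.33, adjusted p = 4.00e-05), and in oligodendrocytes, at 195 ± 80.6 CPM (SD, n = 5; 1.00 ± 0.35, adjusted p = 0.0157).

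Pde1b was at 193, 95.3 and 186 CPM in the Rarb gate of the fed libraries and at 178 and 118 CPM in that of the fasted ones. Both libraries numbered 2 were below the other 3. Pde1b was 2.50-fold higher in this gate (1.32 ± 0.11, adjusted p = 6.35e-14). It was lower in the Foxp2 gate (-1.28 ± 0.20, adjusted p = 1.44e-06) and in all 3 glial gates, where its means were 16.1 CPM in astrocytes, 16.5 CPM in OPCs and 29.7 CPM in oligodendrocytes, near or under its background of 25.6 to 54.0 CPM.

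Pde1c was carried by few nuclei. The study used this gene to mark a cluster outside the CeA, in the interstitial nucleus of the anterior commissure's posterior limb. Whether the nuclei rich in Pde1c belong to that cluster was not tested. Inhibitory nuclei with 10 or more Pde1c UMIs numbered 18, 42 and 79 in the fed libraries and 27 and 88 in the fasted ones, which is 3.08 to 7.68% of the inhibitory nuclei. They held 69.8%, 80.8% and 81.4% of all inhibitory Pde1c UMIs in the fed libraries and 64.0% and 84.2% in the fasted ones, and the richest nucleus of a library had 67 to 329 UMIs. Within the Rarb gate 27.8 to 48.6% of the nuclei had no Pde1c UMI. The bound of 10 UMIs cuts a range and does not define a cell type, since 3 to 16 nuclei a library had 10 to 14 UMIs and 15 to 66 had 5 to 9. Of the Pde1c-rich nuclei, 5, 13 and 37 in the fed libraries and 6 and 31 in the fasted ones were in the Rarb gate. Set beside the Rarb-gated nuclei without a Pde1c UMI, the Pde1c-rich nuclei had less Pde4b in 5 of 5 libraries, with medians over libraries of 509 and 1094 CPM. They had more Adcy5 in 5 of 5, with medians of 745 and 434 CPM, and more Pde1b in 5 of 5, with medians of 198 and 154 CPM. Rarb itself was lower in them in 5 of 5, with medians of 493 and 908 CPM. That follows from the choice of the sets, since only the second required Rarb UMIs. Part of the rich nuclei lay outside the Rarb gate, so the differences above are not differences within Rarb-gated neurons. Median depth was 6212 to 24210.5 UMIs in the rich nuclei and 8226 to 17635 in the Rarb gate, and its part in these differences was not tested.

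**Figure D2:**
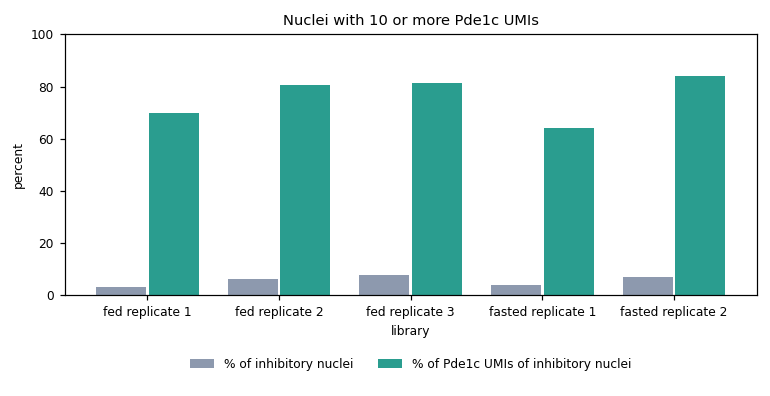
Inhibitory nuclei with at least 10 Pde1c UMIs in each library (horizontal axis), as a percentage (vertical axis) of all inhibitory nuclei and of all Pde1c UMIs in them. In every library at most 7.68% of the nuclei held 64.0% or more of the UMIs.

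Pde3a, which hydrolyses cyclic AMP and is inhibited by cyclic GMP, set the Nkx2-1 gate apart. It measured 437 and 239 CPM in fed replicates 2 and 3 and 205 and 258 CPM in fasted replicates 1 and 2, and fed replicate 1 had too few nuclei of this gate. All 4 libraries lay above every library of the other gates compared, of which the highest was 148 CPM in OPCs. The gate was 19.6-fold above the other inhibitory gates (4.29 ± 0.29, adjusted p = 3.80e-17). After each nucleus was thinned to 4000 UMIs, 51.6 ± 8.69% of its nuclei had a Pde3a UMI (SD, n = 4), against 2.64 ± 1.01% in the Rarb gate and 1.07 ± 1.06% in the astrocyte gate (SD, n = 5). Without thinning the shares were 67.7%, 7.18% and 2.70%. The other 6 inhibitory gates had means of 9.98 to 19.8 CPM, at or under the background of 10.3 to 21.6 CPM, and whether they express Pde3a was not decided. The high Nkx2-1 level is part of the mean that each of them was compared with. OPCs were higher than neurons, at 93.7 ± 46.0 CPM (SD, n = 5; 1.84 ± 0.49, adjusted p = 0.00215).

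The cyclic AMP-specific enzymes Pde4b and Pde4d had different patterns. Pde4b reached 9440.0, 9322 and 7701 CPM in oligodendrocytes of the fed libraries and 6518 and 6385 CPM in those of the fasted ones. The fasted values were the lowest, and all 5 exceeded every library of the other classes. Oligodendrocytes were 15.1-fold above the inhibitory gates (3.92 ± 0.19, adjusted p = 1.06e-24) and OPCs 4.23-fold (2.08 ± 0.21, adjusted p = 7.94e-12). Among neurons Pde4b was 4.15-fold higher in the Foxp2 gate, at 1678 ± 381 CPM (SD, n = 4; 2.05 ± 0.23, adjusted p = 8.64e-10). It was 2.63-fold higher in the Rarb gate (1.39 ± 0.21, adjusted p = 1.59e-06), where the 5 libraries lay between 1028 and 1067 CPM. The Prkcd gate had 50.2, 32.1 and 324 CPM in the fed and 96.7 and 217 CPM in the fasted libraries. These 5 values were below every library of the Foxp2 and Rarb gates and below the background of 329 to 559 CPM, and Pde4b was lower there (-1.98 ± 0.29, adjusted p = 2.71e-07) and in the Dnah5 gate (-1.16 ± 0.26, adjusted p = 0.00124).

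Pde4d had UMIs in every class, with means of 649 CPM in astrocytes and 733 CPM in oligodendrocytes that lay within its background. Among the gates tested it was highest in the Sst gate, with 2634, 2964 and 2176 CPM in the fed and 2567 and 2597 CPM in the fasted libraries. The fed and fasted values overlapped, and the gate was 2.04-fold above the others (1.03 ± 0.13, adjusted p = 7.11e-08). Its libraries overlapped those of the Dnah5 gate, which was next in order of mean. Pde4d was lower in the Prkcd gate (-0.96 ± 0.16, adjusted p = 1.85e-06) and in the Calcrl gate (-0.91 ± 0.15, adjusted p = 2.72e-05), whose means of 806 and 804 CPM were close to the upper end of the background, 491 to 805 CPM. The Vdr gate had too few nuclei for a test. Its 30 nuclei held 1782 Pde4d UMIs of 473149, or 3766 CPM with an exact 95% Poisson interval of 3593 to 3945 CPM for counting error only. They held 0 Pde3a UMIs, where 3 would be 6.34 CPM. The 38 nuclei of the Tac1 gate had 2069 CPM of Pde4d (1960.3 to 2181), 949 CPM of Pde4b (877 to 1027) and 204 CPM of Adcy8 (171 to 242).

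Pde7b, also specific for cyclic AMP, was higher in the Prkcd, Calcrl and Rarb gates. Nuclei of the Prkcd gate measured 1342, 1451 and 1373 CPM in the fed and 1177 and 1271 CPM in the fasted libraries, and both fasted values were below the fed ones. Pde7b was 3.06-fold higher in the Prkcd gate (1.61 ± 0.13, adjusted p = 2.09e-14), 2.62-fold higher in the Calcrl gate (1.39 ± 0.14, adjusted p = 6.83e-11) and 2.33-fold higher in the Rarb gate (1.22 ± 0.13, adjusted p = 5.96e-10). Their means were 1323, 1134 and 987 CPM, and the libraries of neighbours in this order overlapped. Pde7b was lower in the Foxp2 gate (-1.08 ± 0.19, adjusted p = 1.84e-05) and lowest in the Nkx2-1 gate, at 101 ± 38.6 CPM (SD, n = 4; -2.81 ± 0.23, adjusted p = 2.95e-14), under its background of 207 to 282 CPM.

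Pde10a, the dual-specificity enzyme of striatal projection neurons, was the most even member over the 7 inhibitory gates tested. Its means ran from 660.4 ± 271 CPM in the Dnah5 gate to 1463 ± 349 CPM in the Rarb gate (SD, n = 5), a 2.21-fold range, against 3.22-fold for Pde4d and 24.0- and 28.5-fold for Pde1c and Pde3a. In the Rarb gate it was at 1789, 1039.5 and 1620.2 CPM in the fed and 1728 and 1136 CPM in the fasted libraries. The lowest values were again those of the libraries numbered 2. Pde10a was 1.68-fold higher in the Rarb gate (0.75 ± 0.16, adjusted p = 0.00037), lower in the Dnah5 gate (-0.69 ± 0.18, adjusted p = 0.00437) and lower in astrocytes (-1.91 ± 0.20, adjusted p = 8.10e-12), OPCs (-1.02 ± 0.20, adjusted p = 4.48e-05) and oligodendrocytes, at 266 ± 149 CPM (SD, n = 5; adjusted p = 1.08e-10).

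Among the inhibitory gates tested, the adenylyl cyclases were highest in 3 different gates. Adcy5, the cyclase that Golf drives in the striatum, measured 728, 396 and 583 CPM in the Rarb gate of the fed libraries and 843 and 418 CPM in that of the fasted ones. The libraries numbered 2 were the lowest, as for Pde1b and Pde10a. For Pde1b, Pde10a and Adcy5 the gate next in order of mean had libraries that overlapped those of the Rarb gate. Adcy5 was 2.65-fold higher in this gate (1.41 ± 0.11, adjusted p = 2.15e-14), 1.60-fold higher in the Calcrl gate (0.68 ± 0.13, adjusted p = 0.000125) and lower in the Nkx2-1 gate (-1.21 ± 0.18, adjusted p = 5.88e-07).

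Adcy2, which the beta-gamma subunits of G proteins can stimulate, was at 585, 709 and 514 CPM in the Foxp2 gate of the fed libraries and at 542 CPM in that of fasted replicate 2, while fasted replicate 1 had too few nuclei. These values exceeded every library of the Rarb gate, where it was at 116 ± 32.2 CPM (SD, n = 5), within or under its background of 116 to 195 CPM. Adcy2 was 2.23-fold higher in the Foxp2 gate (1.16 ± 0.16, adjusted p = 1.61e-07), lower in the Rarb gate (-1.53 ± 0.17, adjusted p = 5.50e-10) and higher in astrocytes than in neurons (0.55 ± 0.15, adjusted p = 0.00134).

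Adcy8, a cyclase stimulated by calcium and calmodulin, was at 134 and 205 CPM in the Nkx2-1 gate of fed replicates 2 and 3 and at 148 and 319 CPM in that of the fasted libraries. All 4 were above every library of the other 6 inhibitory gates tested, while the Tac1 gate, which was not tested, had 202 and 223 CPM in its 2 libraries with enough nuclei. Adcy8 was 4.81-fold higher in the Nkx2-1 gate (2.27 ± 0.22, adjusted p = 8.54e-12) and 2.31-fold higher in OPCs (1.21 ± 0.30, adjusted p = 0.00108). The Prkcd gate had 14.4, 41.2 and 11.8 CPM in the fed and 11.4 and 3.29 CPM in the fasted libraries (-2.12 ± 0.30, adjusted p = 1.39e-07). All but fed replicate 2 were under its background of 27.8 to 41.0 CPM.

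**Figure D3:**
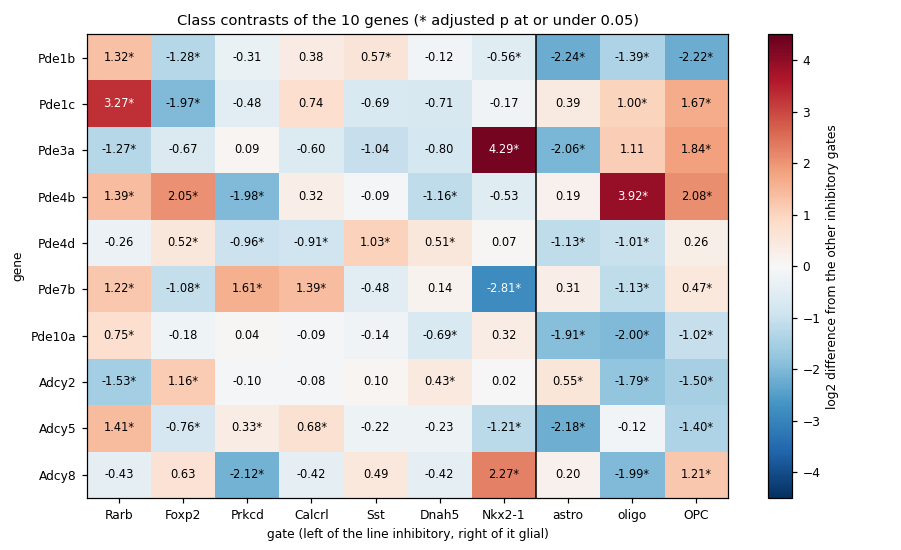
Log2 difference of each member (rows) in each gate (columns) from the mean of the other inhibitory gates, or for the 3 glial gates from the mean of all 7, with an asterisk at an adjusted p of 0.05 or less. The Rarb column holds 6 higher members, and the largest value, 4.29, is that of Pde3a in the Nkx2-1 gate.

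By gate, the Rarb neurons, a marker of cells that the study placed outside the CeA, had the most members above the other neurons. Of 10 members 6 were higher (Pde1b, Pde1c, Pde4b, Pde7b, Pde10a and Adcy5) and 2 lower (Pde3a and Adcy2), where 12.9% of all genes were called (8.32% higher and 4.58% lower), and the median absolute log2 difference was 1.30 for the members against 0.16 for all genes. Of 58 further genes of cyclic nucleotide signalling 51 were tested over the classes, and in the Rarb gate 14 were higher and 4 lower. The 8 with the largest log2 differences were the dual phosphodiesterase Pde11a (2.50), Gucy1a1, a subunit of the nitric oxide receptor that makes cyclic GMP (2.08), Ppp1r1b, the phosphatase inhibitor DARPP-32 (1.98), Gng7, a gamma subunit that partners Golf (1.71), the kinase anchor Akap5 (1.31), the cyclic AMP-activated exchange factor Rapgef3 (-1.30), the Golf alpha subunit Gnal (1.22) and the phosphoprotein Arpp21 (1.06).

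In the Foxp2 gate 7 members were called, where 12.8% of all genes were (7.32% higher and 5.43% lower), with Pde4b, Pde4d and Adcy2 higher and Pde1b, Pde1c, Pde7b and Adcy5 lower. Of the further genes 8 were higher and 5 lower, led by Gucy1a1 (2.97), Pde11a (-1.75), the cyclic GMP-dependent kinase Prkg1 (1.35), Gng7 (-1.32), the G protein subunit Gnb5 (1.27) and Gucy1b1, the partner of Gucy1a1 (1.19). The Foxp2 and Rarb gates had calls of opposite sign for Pde1b, Pde1c, Pde7b, Adcy2 and Adcy5, and both were above the other neurons for Pde4b and Gucy1a1. With nuclei of several gates kept, Pde1c (-0.63, adjusted p = 0.211) and Adcy5 (-0.22, adjusted p = 0.217) did not pass in the Foxp2 gate by edgeR.

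In the Prkcd gate 5 members were called, where 26.2% of all genes were (13.7% higher and 12.5% lower), with Pde7b and Adcy5 (0.33 ± 0.13, adjusted p = 0.0485) higher and Pde4b, Pde4d and Adcy8 lower. The further genes had 8 higher and 16 lower, led by Pde8a, a cyclic AMP-specific phosphodiesterase that was 17.0-fold higher (4.09 ± 0.28, adjusted p = 1.49e-17). Pde11a (-3.03), Gucy1b1 (-2.31), Gucy1a1 (-2.13), Gnb5 (-1.88), Rapgef3 (-1.70) and the calmodulin-stimulated cyclase Adcy1 (-1.49) were lower, and the anchor Akap9 (1.41) was higher.

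The Calcrl, Sst and Dnah5 gates had 3, 2 and 4 members called, against 8.38% (5.64% higher and 2.74% lower), 4.99% (3.73% higher and 1.26% lower) and 11.6% (7.24% higher and 4.40% lower) of all genes. In the Calcrl gate Pde7b and Adcy5 were higher and Pde4d lower, beside Rapgef3 (-1.71), Ppp1r1b (1.44) and the Gs alpha subunit Gnas (-1.03) among 5 higher and 3 lower further genes. In the Sst gate Pde4d and Pde1b (0.57 ± 0.14, adjusted p = 0.00538) were higher, beside Rapgef3 (1.51), Gnas (1.43) and the anchor Akap12 (1.37) among 4 higher and 1 lower. In the Dnah5 gate Pde4d (0.51 ± 0.14, adjusted p = 0.00656) and Adcy2 (0.43 ± 0.15, adjusted p = 0.0431) were higher and Pde4b and Pde10a lower. The further genes there had 9 higher and 4 lower, with Gucy1a1 (-2.27), Rapgef3 (1.95), Gnas (1.34), Pde11a (1.24), Ppp1r1b (1.20) and the calmodulin-stimulated Pde1a (1.13). With lower marker thresholds 0 members were called in the Calcrl and Dnah5 gates.

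In the Nkx2-1 gate 5 members were called, where 24.8% of all genes were (12.6% higher and 12.1% lower), with Pde3a and Adcy8 higher and Pde1b (-0.56 ± 0.20, adjusted p = 0.0382), Pde7b and Adcy5 lower. The further genes had 5 higher and 14 lower, among them Ppp1r1b (-4.23), Prkg1 (-2.51), Arpp21 (-2.36), Pde1a (-2.12), Adcy1 (2.11), Akap5 (-1.58), the cyclic AMP-specific Pde8b (-1.58) and the kinase Prkg2 (-1.58). Ppp1r1b and Arpp21 were thus higher in the Rarb gate and lower here, and the calmodulin-stimulated cyclases Adcy1 and Adcy8 were both higher here.

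Glial gates differed from neurons at 61.3% (32.4% higher and 29.0% lower) of all genes in astrocytes, 44.2% (21.1% higher and 23.0% lower) in oligodendrocytes and 38.5% (18.1% higher and 20.4% lower) in OPCs, beside 6, 8 and 9 members called. In astrocytes Adcy2 was higher and Pde1b, Pde3a, Pde4d, Pde10a and Adcy5 lower. Rapgef3 was 17.2-fold higher there (4.10 ± 0.18, adjusted p = 6.59e-27), and Pde4a (-2.40), the kinase regulatory subunits Prkar1b (-2.36) and Prkar2b (-2.05), the exchange factor Rapgef4 (-2.17), Pde1a (-2.09), Gnal (-2.03) and Akap5 (-1.87) were lower. In oligodendrocytes Pde4b and Pde1c were higher and Pde1b, Pde4d, Pde7b, Pde10a, Adcy2 and Adcy8 lower. Pde8a was 67.1-fold higher there (6.07 ± 0.23, adjusted p = 8.65e-29), and Rapgef4 (-2.18), Pde3b (-1.96), Prkg2 (-1.89), Gnal (-1.85), the guanylyl cyclase genes Gucy1a2 (-1.84) and Npr2 (-1.77) and Pde8b (-1.74) were lower. In OPCs Pde1c, Pde3a, Pde4b, Pde7b (0.47 ± 0.16, adjusted p = 0.0142) and Adcy8 were higher and Pde1b, Pde10a, Adcy2 and Adcy5 lower. Beside them stood Pde11a (-3.28), Rapgef4 (-2.78), Prkg2 (2.53), Pde4a (-2.45), Rapgef3 (2.43), Prkar1b (-2.15), Pde8a (2.11) and the cyclic GMP-specific Pde9a (-1.96). The further genes counted 9 higher and 27 lower in astrocytes, 5 and 25 in oligodendrocytes and 6 and 26 in OPCs. Among the members Pde1b and Pde10a were lower in all 3 glial gates, and no member was higher in all 3.

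Leaving out 1 library ended 9 of the 57 calls of members. Without fed replicate 3, Pde3a in the Rarb gate had a log2 difference of -0.86 and an adjusted p of 0.176 and Pde1b in the Sst gate a log2 difference of 0.49 and an adjusted p of 0.0682. Without fasted replicate 2, Pde10a in the Dnah5 gate had a log2 difference of -0.62 and an adjusted p of 0.0526. Pde4d in the Foxp2 gate was lost without fed replicate 1 or 2 (0.40 to 0.50, adjusted p = 0.0982 to 0.167), Pde7b in OPCs without fed or fasted replicate 2 (0.33 to 0.46, adjusted p = 0.0541 to 0.155) and Pde1c in oligodendrocytes without any 1 fed library (0.79 to 0.91, adjusted p = 0.0622 to 0.0847). Pde1b in the Nkx2-1 gate was lost without any 1 of its 4 libraries (-0.50 to -0.59, adjusted p = 0.061 to 0.131), Adcy2 in the Dnah5 gate without any but fed replicate 2 (0.36 to 0.43, adjusted p = 0.112 to 0.17) and Adcy5 in the Prkcd gate without any but fasted replicate 1 (0.26 to 0.35, adjusted p = 0.0873 to 0.188). Another alternative alone ended 9 more. With lower marker thresholds these were Pde4d (-0.49, adjusted p = 0.193), Pde7b (0.42, adjusted p = 0.108) and Adcy5 (0.25, adjusted p = 0.571) in the Calcrl gate and Pde4b (-0.52, adjusted p = 0.279) and Pde4d (0.34, adjusted p = 0.316) in the Dnah5 gate. With doubled thresholds they were Pde3a in astrocytes (-0.53, adjusted p = 0.52) and Adcy8 in oligodendrocytes (-1.06, adjusted p = 0.152), and with nuclei of several gates kept the Foxp2 calls of Pde1c and Adcy5 given above. Thresholds were changed for the inhibitory gates only. The glial nuclei stayed the same, and only the inhibitory sums in those fits differed from the main fit. With doubled or lower thresholds the Nkx2-1 gate was not fitted, so the inhibitory mean lacked the gate highest in Pde3a and Adcy8. Its part in these losses was not tested. These are log2 differences and adjusted p-values of edgeR's quasi-likelihood test.

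The patterns of members over the 9 inhibitory gates are compared as a description, over 9 points that share libraries and depth. The minimum of 10 nuclei a library was not kept for these points. They include the Vdr gate, with 8, 4 and 9 nuclei in the fed and 1 and 8 nuclei in the fasted libraries. The part of such small libraries in the correlations below was not tested. Pearson's r of mean log2(CPM + 1) was highest for Pde7b with Adcy5, at 0.86, followed by Pde1c with Pde10a at 0.79 and Pde1b with Adcy5 at 0.73, and lowest for Pde7b with Adcy8, at -0.59. Among 8294 genes the ones most like Pde1c were Drd2 (0.93), Mro (0.91) and Mxd1 (0.89), of which Drd2 encodes the D2 dopamine receptor. Between nuclei Drd2 differed little. Its median over libraries was 169 CPM in Pde1c-rich nuclei and 163 CPM in Rarb-gated nuclei without a Pde1c UMI. It was higher in the rich nuclei in 4 of 5 libraries. Those most like Adcy5 were G2e3 (0.94), Mei4 (0.93) and Gng7 (0.93), and those most like Pde3a were Srrm4 (0.98), Zeb2 (0.97) and Lgr5 (0.96). Pde4b was most like Rgs8 (0.95), Adgrb1 (0.94) and Hip1r (0.94), Pde4d like Cntn1 (0.96), Dock11 (0.95) and Chd9 (0.94), and Pde7b like Hspbap1 (0.97), Zfp142 (0.96) and Unc5a (0.96). Pde10a had the least similar partners, Rbms3 (0.82), Kitl (0.80) and the kappa opioid receptor gene Oprk1 (0.79). Pde1b was most like Taf1c (0.98), B3gntl1 (0.97) and Wdr17 (0.96), Adcy2 like Zdhhc21 (0.96), Pofut1 (0.95) and Ddhd2 (0.95), and Adcy8 like Iqsec3 (0.96), Arntl2 (0.95) and Elavl2 (0.95).

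The other comparison asked whether members differed between fed and fasted libraries within a class. In the Rarb, Prkcd, Calcrl, Sst and Dnah5 gates, the 3 glial gates and all inhibitory nuclei, 0 members passed an adjusted p of 0.05 by edgeR's quasi-likelihood test, and 16 of 84 tests (19.0%) had an unadjusted p under 0.05, against 5.53% of the tests of all genes in these classes. These tests reuse the same libraries, and all inhibitory nuclei include those of the gates. Members were also chosen with earlier results of these data known, so the share is no test of them as a set. DESeq2 called 0 members, edgeR's likelihood ratio test 2 and the fit without a filter on low counts 6. The likelihood ratio test called Pde3a in the Sst gate (adjusted p = 0.0298), where it called 0.918% of all genes, and Adcy8 in the Dnah5 gate (adjusted p = 0.0484), where it called 0.258%. Without the filter edgeR's quasi-likelihood test called Pde3a and Pde7b in the Sst gate (adjusted p = 0.0249 and 0.0363), Pde10a and Adcy8 in the Dnah5 gate (adjusted p = 0.0113 and 0.0049), and Pde1c in the Calcrl and Rarb gates (adjusted p = 0.0298 and 0.0257). It called 0.762%, 0.358%, 0.365% and 0.385% of all genes in the Sst, Dnah5, Calcrl and Rarb gates. With the filter, 0.0387% of all genes were called in the Rarb gate, 0.0238% in Prkcd, 0% in Calcrl, 0.324% in Sst, 0.0136% in Dnah5, 1.03% in astrocytes, 0% in oligodendrocytes, 0.419% in OPCs and 0.00744% in all inhibitory nuclei. Of the further genes 1 was called, Gnas in OPCs, which was higher after fasting (1.44 ± 0.35, adjusted p = 0.0415). This call of Gnas was not followed under the alternatives. The 10 genes called in OPCs became 1 with DESeq2 and 3 with the preparation pairs as a block. Members not tested for low counts were Pde1b and Pde3a in astrocytes and oligodendrocytes, Adcy8 in oligodendrocytes and Pde1b in OPCs.

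The member tests with the lowest unadjusted p lay in the Dnah5 and Sst gates, with lower levels in the fasted libraries. Pde10a in the Dnah5 gate measured 708, 715 and 1061 CPM in the fed and 442 and 376 CPM in the fasted libraries. The groups did not overlap and both pairs of libraries prepared together had the lower value in the fasted one, but the difference did not pass (-1.03 ± 0.24, adjusted p = 0.614). Adcy8 in that gate was at 39.1, 75.0 and 71.5 CPM in the fed and 13.5 and 25.3 CPM in the fasted libraries (-1.58 ± 0.38, adjusted p = 0.614), again without overlap, with both fasted values under its background. Pde7b in the Sst gate was at 387, 385 and 639 CPM in the fed and 277 and 268 CPM in the fasted libraries (-0.85 ± 0.25, adjusted p = 0.244), also without overlap. Pde3a in that gate was at 20.7, 32.9 and 10.8 CPM in the fed and 5.03 and 2.27 CPM in the fasted libraries (-2.99 ± 0.83, adjusted p = 0.202), mostly at or under its background. These levels rest on 3, 22 and 6 UMIs in the fed and 1 and 3 UMIs in the fasted libraries. Pde1c in the Calcrl gate went the other way, with 83.0, 143 and 42.7 CPM in the fed and 189 and 188 CPM in the fasted libraries (1.14 ± 0.38, adjusted p = 0.76). Over all inhibitory nuclei Pde7b was at 762, 756 and 863 CPM in the fed and 648 and 611 CPM in the fasted libraries (-0.35 ± 0.12, adjusted p = 0.672), with both fasted values below the fed ones. Fed and fasted values also did not overlap for other members. They were lower after fasting for Pde7b in the Dnah5 and Prkcd gates and Adcy8 in the Calcrl and Prkcd gates. In astrocytes Pde1c, Pde4b, Adcy2 and Adcy8 were lower, as were Pde1c and Pde4b in oligodendrocytes. Higher after fasting were Pde4d in the Rarb gate and in all inhibitory nuclei, Pde4b in OPCs and Pde3a in oligodendrocytes. Pde3a was not tested there for low counts. With so few libraries a lack of overlap carries little weight, and its share over all genes was not computed.

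**Figure D4:**
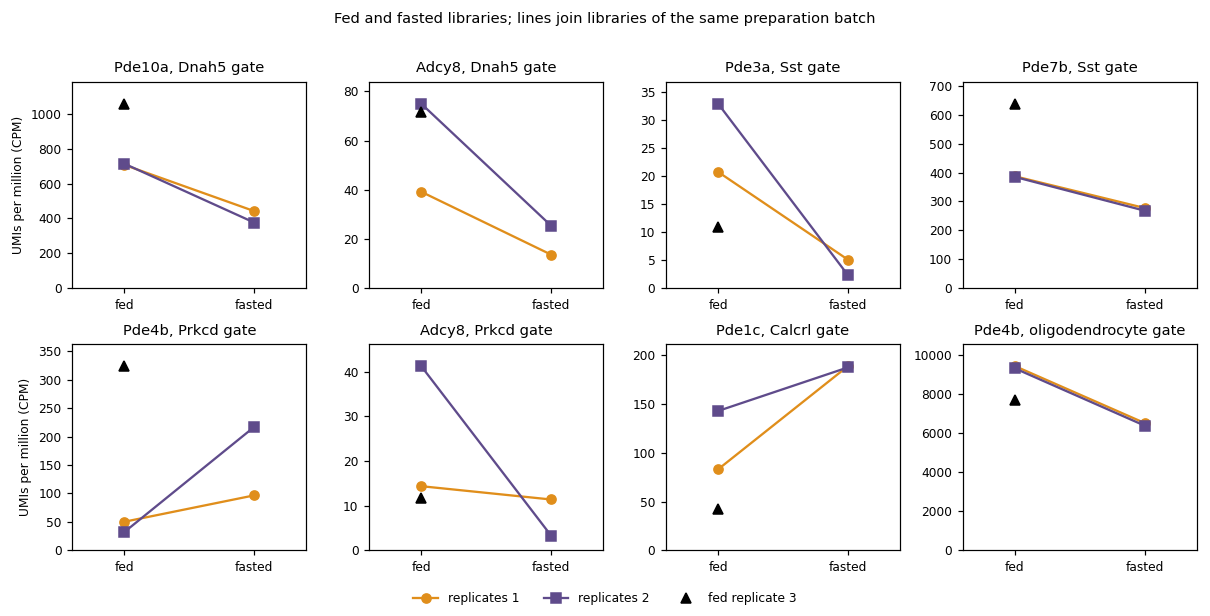
Level in CPM (vertical axes, from 0) of 8 pairs of a member and a gate, chosen after their values were seen, in fed and fasted libraries (horizontal axes), with lines between libraries prepared together. Pde10a and Adcy8 in the Dnah5 gate and Pde3a and Pde7b in the Sst gate were lower in both fasted libraries than in all 3 fed ones, and none of the 8 passed edgeR's quasi-likelihood test with the filter on low counts and no block. The share of all genes separated in this way was not computed.

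With the preparation pairs in the fit as a replicate block, calls of members appeared in 2 classes, the Prkcd gate, where 0.871% of all genes were called in the same fit (80 genes against 2 without the block), and oligodendrocytes, where 0.249% were (9 against 0). In this fit by edgeR Pde4b of the Prkcd gate was higher in fasted libraries (2.19 ± 0.30, adjusted p = 4.65e-09) and Adcy8 lower (-2.87 ± 0.70, adjusted p = 0.0111). Without the block the values were 0.23 and -2.31 with adjusted p of 0.998 and 0.625. Pde4b went from 50.2 to 96.7 CPM in the libraries numbered 1 and from 32.1 to 217 CPM in those numbered 2, while fed replicate 3, which has no partner, had the highest value, 324 CPM. All these Pde4b values are under its background. Adcy8 went from 14.4 to 11.4 CPM and from 41.2 to 3.29 CPM, so the difference lay mainly in the libraries numbered 2. In fed replicate 2 it had 36 UMIs, held by 7.32% of 41 nuclei. In fasted replicate 2 it had 3 UMIs, held by 6% of 50 nuclei. The fall thus lay in the UMIs of a few nuclei, with little change in the share of nuclei. In oligodendrocytes Pde4b fell with the block (-0.57 ± 0.11, adjusted p = 0.0358), and without it the test gave -0.45 ± 0.28, adjusted p = 0.854, with both fasted values, 6518 and 6385 CPM, below the fed ones. The blocked fit has 1 residual degree of freedom a gene before the spread is shared across genes. For Pde4b in the Prkcd gate the pairs had log2 changes of 0.93 and 2.72. These lie further apart than the standard error of 0.30, so that error and its p-value do not measure the spread between pairs.

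Whether the effect of fasting differed between the 5 inhibitory gates with enough nuclei in every library was tested in 1 fit over 9108 genes. As between classes, its units are sums of a gate in a library, treated as independent once library effects are taken out. In each gate 0% of genes were called by edgeR, and 7 of the 50 tests of members (14%) had an unadjusted p under 0.05, against 5.11% of the tests of all genes. These tests too share libraries, and the members were chosen with earlier results of these data known, so this share is no test of them as a set. DESeq2 and the likelihood ratio test called 0 members. Without a filter on low counts edgeR called 3, which were Pde1c in the Calcrl gate (adjusted p = 3.64e-07), Pde3a in the Sst gate (adjusted p = 0.00111) and Pde10a in the Dnah5 gate (adjusted p = 0.0025), where 0.447%, 0.363% and 0.185% of all genes were called. With the filter the lowest p-values were those of Pde10a in the Dnah5 gate, at -0.70 ± 0.20 relative to the mean of the 5 gates (unadjusted p = 0.00171 and adjusted p = 0.575 by edgeR), and of Pde1c in the Calcrl gate, at 1.37 ± 0.41 (unadjusted p = 0.00264 and adjusted p = 0.486 by edgeR).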

How the data were processed

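Single nuclei of the CeA were sequenced by the study from 5 libraries of 3′ Chromium chemistry. The deposited values are raw UMI counts per gene and barcode, made by the authors with Cell Ranger 5.0.0 per the matrix headers and the study's methods, with intronic reads and a GRCm39 annotation that also held Cre and mCherry. The processing notes of the labels name mm10 and Cell Ranger 2.1.1 instead, and this difference was not settled. Nothing was normalized before deposit.

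Nuclei with 500 to 8000 genes and under 0.8% mitochondrial UMIs were kept. Inhibitory nuclei had at least 3 UMIs of Gad1 and Gad2 together and under 3 of Slc17a6 and Slc17a7. Gates were set at Rarb 5, Foxp2 10, Prkcd 4, Calcrl, Sst, Dnah5, Tac1 and Vdr 2 and Nkx2-1 1 UMIs or more, and glial gates at summed marker lists. Scrublet, run in scanpy 1.11.5, called 72 nuclei (1.01%) doublets, which were kept, with their removal as an alternative. Pairs of libraries shared at most 1 barcode, in 3 of 10 pairs. Summed lists of other cell types in inhibitory nuclei were, in CPM over libraries, 18.6 to 48.1 for astrocytes, 124 to 215 for oligodendrocytes, 3.34 to 9.15 for OPCs, 1.52 to 4.94 for endothelium and 0.323 to 3.14 for excitatory neurons.

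UMIs were summed per class and library with at least 10 nuclei and tested with edgeR 4.0.16 in R 4.3.3 (TMM scaling, filterByExpr, quasi-likelihood F test, Benjamini-Hochberg adjustment, threshold 0.05), with the library as a block between classes and no block between fed and fasted libraries. The standard error is the absolute log2 difference over the square root of F. DESeq2 1.42.0 was an alternative. Scripts were tested on simulated data. Shares of nuclei were compared after thinning to 4000 UMIs, leaving out shallower nuclei. Intervals cover counting error only.

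Same-numbered fed and fasted libraries were prepared together per the study's supplementary information, and fed replicate 3 was taken by elimination as the fed library of the remaining batch. The correlation of deviations from the group means between same-numbered libraries was 0.339 and 0.480 for numbers 1 and 2 over all inhibitory nuclei, and -0.103 and -0.0489 in astrocytes. Fed replicate 3 had 0.173 with fasted replicate 1 and -0.173 with fasted replicate 2 over all inhibitory nuclei. Deviations of the 2 fasted libraries mirror each other, so these values are not independent. The blocked fit is given where it changed a call.

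The 10 members were named in every comparison. Of a list of 58 further genes of the pathway, those with an adjusted p of 0.05 or less and, between classes, a log2 difference of 1 or more are named, at most 8 a comparison. The 3 most similar genes are named for each member, among genes at 20 CPM or more. The members and lists were chosen with earlier results of these data known.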

Additional observations from a re-analysis of the deposited data

How the results depend on the processing

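Of the 57 calls of members between classes, 39 kept their direction and their side of the threshold under every alternative fitted for their gate. The alternatives were DESeq2, the likelihood ratio test, no filter on low counts and doubled or lower marker thresholds. Further ones kept nuclei of several gates, removed called doublets or left out each library. The Nkx2-1 gate was not fitted with doubled or lower marker thresholds. Its calls of Pde3a, Pde7b, Adcy5 and Adcy8 are counted among the 39 without these alternatives. Glial gates gave 5 of the 39 in astrocytes, 6 in oligodendrocytes and 8 in OPCs. Doubled or lower thresholds and keeping nuclei of several gates changed only the inhibitory gates. For these glial calls those alternatives changed the inhibitory mean and not the glial nuclei. For the other 18 the cause was not tested. Pde3a in the Prkcd gate changed from 0.09 to -0.91 with nuclei of several gates kept (edgeR adjusted p = 0.0094). DESeq2 with its size factors, which changes the test and the scaling together, moved the share of calls that were higher from 52.8% to 63.1% in astrocytes, 47.9% to 60.0% in oligodendrocytes and 47.1% to 62.0% in OPCs, and from 51.0% to 60.5% in the Nkx2-1 gate.

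Counts of genes called between classes moved as follows. In the Foxp2 gate 1132 became 1944 with nuclei of several gates kept and 670 to 1217 without 1 library. In the Calcrl gate 744 became 129 with lower thresholds, 2078 with nuclei of several gates kept and 454 to 666 without 1 library. In the Sst gate 443 became 680 with no filter on low counts, 720 with doubled marker thresholds, 232 with lower thresholds, 1078 with nuclei of several gates kept and 283 to 427 without 1 library. In the Dnah5 gate 1034 became 314 with lower thresholds. In the Nkx2-1 gate 2198 became 3387 with nuclei of several gates kept and 1380 to 2243 without 1 library. Counts of members moved too. The 3 members in the Calcrl gate became 5 with doubled marker thresholds, 0 with lower thresholds and 8 with nuclei of several gates kept. The 2 members in the Sst gate became 5 with no filter on low counts, 4 with doubled marker thresholds and 4 with nuclei of several gates kept. The 4 members in the Dnah5 gate became 0 with lower thresholds and 2 to 4 without 1 library.

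Counts of genes called between fed and fasted libraries, with the replicate block standing for the paired fit, moved as follows. The count of 4 in the Rarb gate became 7 with DESeq2, 37 with the likelihood ratio test, 61 with no filter on low counts, 9 with doubled marker thresholds, 2 with lower thresholds, 2 with nuclei of several gates kept, 87 with the replicate block and 0 to 12 without 1 library. The count of 2 in the Prkcd gate became 0 with DESeq2, 14 with the likelihood ratio test, 43 with no filter on low counts, 0 with lower thresholds, 80 with the replicate block and 0 to 11 without 1 library. The count of 0 in the Calcrl gate became 2 with DESeq2, 17 with the likelihood ratio test, 52 with no filter on low counts, 14 with nuclei of several gates kept and 0 to 40 without 1 library. The count of 24 in the Sst gate became 4 with DESeq2, 68 with the likelihood ratio test, 111 with no filter on low counts, 13 with lower thresholds, 42 with nuclei of several gates kept, 115 with the replicate block and 2 to 45 without 1 library. The count of 1 in the Dnah5 gate became 11 with DESeq2, 19 with the likelihood ratio test, 53 with no filter on low counts, 0 with lower thresholds, 0 with nuclei of several gates kept, 0 with doublets removed, 6 with the replicate block and 0 to 3 without 1 library. The count of 74 in astrocytes became 172 with the likelihood ratio test, 243 with no filter on low counts and 0 to 87 without 1 library. The count of 0 in oligodendrocytes became 22 with the likelihood ratio test, 18 with no filter on low counts, 9 with the replicate block and 0 to 27 without 1 library. The count of 10 in OPCs became 1 with DESeq2, 16 with no filter on low counts, 3 with the replicate block and 2 to 14 without 1 library. The count of 1 in all inhibitory nuclei became 93 with DESeq2, 167 with the likelihood ratio test, 160 with no filter on low counts, 423 with the replicate block and 0 to 31 without 1 library. Counts of members called moved in the following cases. The 0 members in the Rarb gate became 1 with no filter on low counts. The 0 members in the Prkcd gate became 2 with the replicate block. The 0 members in the Calcrl gate became 1 with no filter on low counts. The 0 members in the Sst gate became 1 with the likelihood ratio test and 2 with no filter on low counts. The 0 members in the Dnah5 gate became 1 with the likelihood ratio test and 2 with no filter on low counts. The 0 members in oligodendrocytes became 1 with the replicate block.

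Counts of genes for which the fasting effect differed between gates moved as follows. For the Rarb gate 0 became 16 with no filter on low counts and 1 with nuclei of several gates kept. For the Prkcd gate 0 became 13 with no filter on low counts, 2 with lower thresholds, 1 with nuclei of several gates kept and 0 to 1 without 1 library. For the Calcrl gate 0 became 16 with DESeq2, 26 with the likelihood ratio test, 75 with no filter on low counts and 0 to 8 without 1 library. For the Sst gate 0 became 9 with the likelihood ratio test, 61 with no filter on low counts, 3 with lower thresholds and 0 to 7 without 1 library. For the Dnah5 gate 0 became 1 with DESeq2, 11 with the likelihood ratio test, 31 with no filter on low counts and 0 to 1 without 1 library. Counts of members were as follows. Between gates 0 in the Calcrl gate became 1 with no filter on low counts. Between gates 0 in the Sst gate became 1 with no filter on low counts. Between gates 0 in the Dnah5 gate became 1 with no filter on low counts. The interaction was not run with a further replicate block, since each library is already a block. The replicate block changed no other call of a member than those given for Pde4b and Adcy8.

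Depth limits Pde3a, which had 33 to 107 UMIs over all libraries in the 6 inhibitory gates tested other than Nkx2-1, Adcy8 in oligodendrocytes, with 12 UMIs, and the Foxp2 and Nkx2-1 gates, which have 4 libraries each.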
